A study of Rattus norvegicus with 16 samples.

Results

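The proteasome genes of rat bone are described here in the proximal femur (the part of the thigh bone near the hip) on 16 Affymetrix expression arrays. The members are all genes whose single platform symbol begins with Psm, then a letter from a to g, then a digit, and each gene is read from its probe set with the highest mean log2 signal. This gave 46 of the 14217 genes with a named probe set, and all 46 passed the filter on dim signals. Of these, 44 are subunits, activators, an inhibitor or assembly chaperones of the proteasome. The other 2, Psmc3ip (a meiotic recombination factor) and Psme3ip1 (a binding partner of an activator), match by symbol but are none of these. The femora were from rats aged 4 weeks. Each of 4 inbred strains was measured on 4 arrays, namely Fischer 344 (F344), Lewis (LEW), Copenhagen 2331 (COP) and Dark Agouti (DA). The labels name no treatment or transgene for these groups, and neither sex nor pooling is stated.

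The proteasome is the protease of the cytosol and nucleus that degrades proteins tagged with ubiquitin. Its 20S core is a barrel of alpha and beta subunits, and 3 of the constitutive beta subunits, Psmb5, Psmb7 and one not read here, carry the active sites. In cells exposed to interferon gamma, and at all times in many leukocytes, Psmb8, Psmb10 and Psmb9 take the places of these subunits and form the immunoproteasome, which makes more peptides that fit MHC class I molecules. The core is capped by the 19S particle, whose ATPases unfold the substrate and whose other subunits bind and remove ubiquitin, or by activators such as the ring of Psme1 and Psme2, which interferon gamma also raises. The femur piece holds bone, cartilage and marrow, and marrow is rich in leukocytes. Its arrays also showed bright skeletal muscle markers.

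Promoter sequences of the inducible genes are shown because these genes differ in the letters that interferon-activated factors are known to bind. They are RefSeq windows of the rat assembly GRCr8, from 130 bases before to 10 bases after the annotated start, 5′ to 3′ along the gene, with capitals marking GAAA, 2 free bases and GAAA again, or the reverse with TTTC, the core bound by interferon regulatory factors. In the Psmb5 window the capitals mark TGACNNNGC, the core of the element bound by Nfe2l1 and Nfe2l2, which raise constitutive proteasome genes. The windows lie at chr20:4657022-4657161 (minus strand, Psmb8), chr20:4668870-4669009 (plus, Psmb9), chr20:4668534-4668673 (minus, Tap1), chr19:50743283-50743422 (minus, Psmb10), chr15:33052742-33052881 (minus, Psme2), chr15:33038841-33038980 (plus, Psme1) and chr15:32047370-32047509 (minus, Psmb5).
Psmb8: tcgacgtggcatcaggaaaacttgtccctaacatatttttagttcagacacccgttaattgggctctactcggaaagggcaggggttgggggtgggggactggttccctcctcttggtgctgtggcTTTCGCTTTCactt
Psmb10: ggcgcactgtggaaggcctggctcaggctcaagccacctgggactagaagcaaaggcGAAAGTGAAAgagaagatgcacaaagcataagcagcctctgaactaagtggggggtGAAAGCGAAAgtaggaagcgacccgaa
Psme2: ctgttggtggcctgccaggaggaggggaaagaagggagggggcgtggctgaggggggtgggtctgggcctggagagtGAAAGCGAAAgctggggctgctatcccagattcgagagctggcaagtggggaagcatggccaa
Psmb9: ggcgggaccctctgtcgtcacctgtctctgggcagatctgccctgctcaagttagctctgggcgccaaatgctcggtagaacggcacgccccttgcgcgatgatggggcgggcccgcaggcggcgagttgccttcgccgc
Psme1: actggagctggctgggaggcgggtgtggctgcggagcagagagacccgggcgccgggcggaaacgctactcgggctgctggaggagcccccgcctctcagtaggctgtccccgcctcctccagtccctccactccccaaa
Tap1: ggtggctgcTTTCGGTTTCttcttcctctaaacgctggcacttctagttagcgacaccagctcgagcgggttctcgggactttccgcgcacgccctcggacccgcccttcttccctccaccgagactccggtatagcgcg
Psmb5: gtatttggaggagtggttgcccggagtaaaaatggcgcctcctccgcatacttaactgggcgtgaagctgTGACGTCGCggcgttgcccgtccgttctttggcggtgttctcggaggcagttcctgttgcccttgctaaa

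In RefSeq's full promoter windows, which run further upstream than the stretches shown, the GAAA core was searched on both strands. It stood in the promoters of 7 of the 42 members with a promoter sequence, against 3.92% of 33469 promoters. Psmb10 held it at 73 and at 17 bases before the start, Psme2 at 53 and Psmb8 at 4, and the others were Psma4, Psmb3, Psmd7 and Psmg4. Psmb9 and Psme1 held none in their windows. The start of Psmb9 lies 456 bases from that of Tap1, a peptide transporter gene read in the opposite direction, and the match in the Tap1 window lies 336 bases before the start of Psmb9. TTCNNNGAA, the core bound by Stat factors, which reads the same on both strands, was found in 4 of the 42 (Psmb8, Psmc6, Psmd3 and Psmd7) against 8.87% of promoters. TGACNNNGC (reverse GCNNNGTCA) was found in 7 (Psma3, Psmb2, Psmb5, Psmd1, Psmd3, Psmd9 and Psme4) against 12.1%. A match describes letters only and does not show that a factor binds there.

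The deposited signals had a trimmed mean of 1000 on each array. The number of arrays limits the precision, and the labels do not say that the 4 arrays of a strain are separate animals, so the tests speak only of the spread among these 16 samples, which may be technical. All differences are log2 differences between strains, the first named minus the second, from a limma fit to all 16 arrays, with Benjamini-Hochberg adjustment over 18625 kept probe sets and a threshold of 0.05. The 6 comparisons share strains, so their values stand side by side and are not independent.

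Over the 4 strains together, limma's F-test called 10 of the 46 genes, against 31.2% of all kept probe sets. Of the 5 inducible genes it called 4, Psmb8, Psmb9, Psmb10 and Psme2. Of the 39 other proteasome genes it called 6: Psmd5, Psmg1, Psmb3, Psmd10, Psmf1 and Psme4. Of the 7 alpha subunits, 6 ATPases and 11 other 19S subunits, limma called 0, with 3, 0 and 2 at an unadjusted p under 0.05. Between LEW and COP the 39 had a median absolute log2 difference of 0.089, where all kept probe sets had 0.13. Between LEW and DA the values were 0.037 and 0.13. These were not matched for brightness. The 39 had mean signals of 1242 (Psmg3) to 19862 (Psma6), while the filter kept probe sets down to a signal of 174.

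Psmb9, the inducible counterpart of a constitutive catalytic subunit, differed the most among the members. Its signals were 2484, 2155, 2215 and 2098 in F344, 1831, 1652, 1705 and 1652 in LEW, 2838, 3188, 3071 and 3130 in COP, and 2910, 2754, 2669 and 2558 in DA. The strains stood in the order LEW, F344, DA, COP from low to high, and COP and DA were the only neighbours whose arrays overlapped. LEW averaged 1710 ± 84.2 and COP 3057 ± 153 (SD, n = 4 each). The log2 difference was -0.84 (SE 0.0679, limma adjusted p = 1.27e-08), or 1.79-fold higher in COP. LEW was also below DA (-0.67, limma adjusted p = 4.1e-07). F344 was above LEW by 0.39 (limma adjusted p = 0.000416) and lay below COP (-0.45, limma adjusted p = 5.76e-05) and DA (-0.28, limma adjusted p = 0.00605). COP minus DA was 0.17, which did not pass (limma adjusted p = 0.119). In whole bone tissue, fewer cells of a type and less RNA per cell cannot be told apart, here and in all that follows.

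Psmb8, the inducible counterpart of Psmb5, stood in the same order of strains. Its signals were 1854, 2044, 1882 and 1817 in F344, 1663, 1631, 1699 and 1770 in LEW, 2682, 2417, 2659 and 2646 in COP, and 2282, 2388, 2162 and 2030 in DA. Only F344 and DA overlapped. LEW averaged 1691 ± 59.7 and COP 2601 ± 123 (SD, n = 4 each), a difference of -0.62 (SE 0.0665, limma adjusted p = 7.95e-07), 1.54-fold higher in COP. LEW minus DA was -0.39 (limma adjusted p = 0.000359) and F344 minus COP -0.45 (limma adjusted p = 4.31e-05). F344 minus LEW was 0.17 and did not pass (limma adjusted p = 0.106), although their arrays did not overlap. The calls for F344 minus DA (-0.22, limma adjusted p = 0.0271) and COP minus DA (0.23, limma adjusted p = 0.0253) were close to the threshold. With 1 array left out they stayed at -0.26 to -0.18 and at 0.19 to 0.27. The first was lost without F344 replicate 1, 3 or 4 or DA replicate 1 or 2 (limma adjusted p up to 0.0959), and the second without COP replicate 1, 3 or 4 or DA replicate 3 or 4 (up to 0.0867), under median centring and in a fit of the 2 strains alone.

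**Figure D1:**
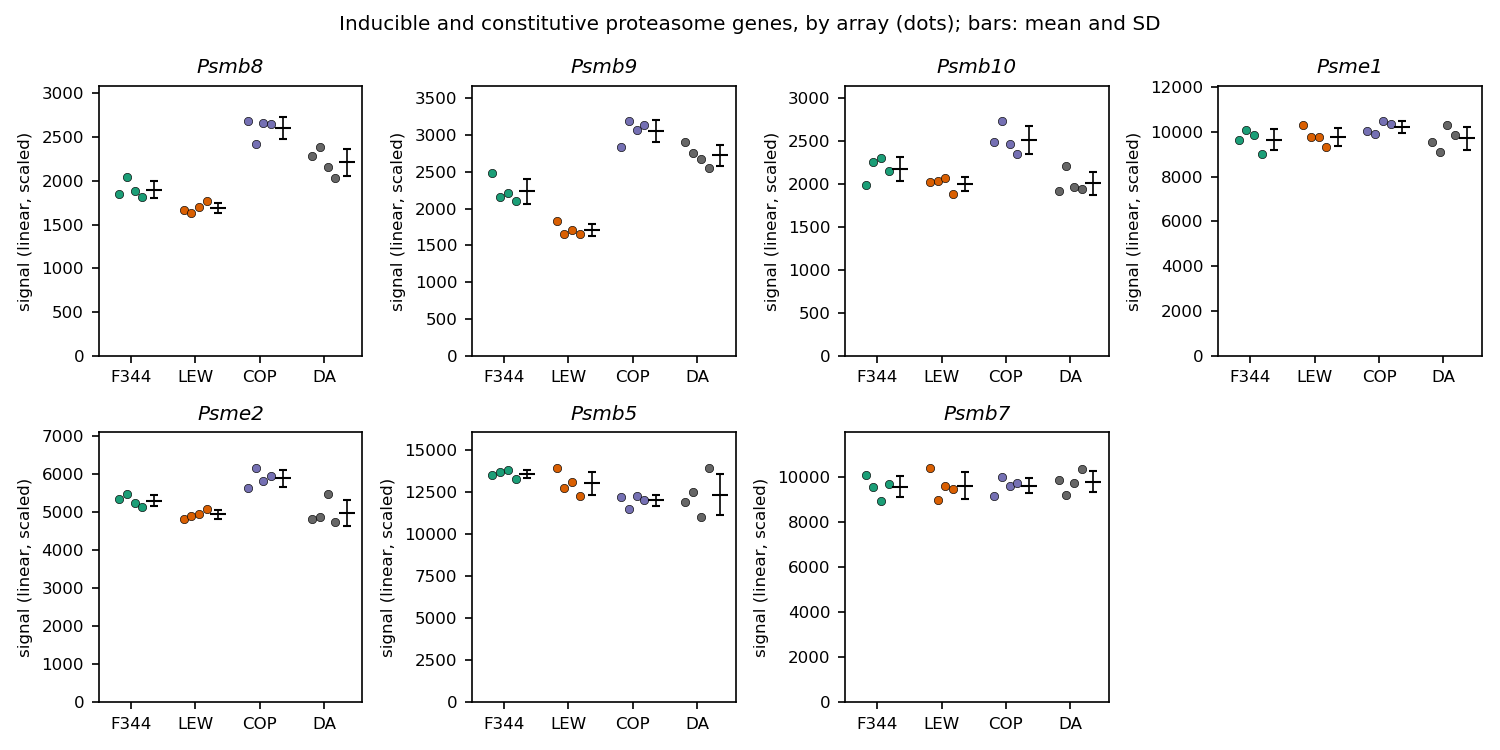
Signal (linear, scaled by the authors) of the 5 inducible genes and of Psmb5 and Psmb7 in F344, LEW, COP and DA, from left to right; dots are arrays, and the bar beside them is the mean with the SD (n = 4). For Psmb9 the LEW arrays lie at 1652 to 1831 and the COP arrays at 2838 to 3188, while for Psme1 and Psmb7 the arrays of all strains overlap.

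Psmb10, the inducible counterpart of Psmb7, was higher in COP than in each of the others. Its signals were 1996, 2258, 2302 and 2159 in F344, 2022, 2038, 2072 and 1882 in LEW, 2495, 2735, 2475 and 2356 in COP, and 1918, 2214, 1966 and 1947 in DA. Every COP array lay above every array of the other strains, which overlapped one another. The LEW minus COP difference was -0.33 (SE 0.0693, limma adjusted p = 0.00225) and COP minus DA 0.32 (limma adjusted p = 0.00346). F344 minus COP was -0.21 (limma adjusted p = 0.0398), a call lost without F344 replicate 1, 2 or 4 or COP replicate 1, 2 or 3 (up to 0.141), without the filter, under median centring and without the intensity trend. Unlike Psmb8 and Psmb9, which lie on chromosome 20 in the MHC, Psmb10 lies on chromosome 19.

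The activator subunits Psme1 and Psme2 lie close together on chromosome 15 and form 1 ring. Psme2 had signals of 5329, 5471, 5240 and 5122 in F344, 4805, 4895, 4958 and 5080 in LEW, 5635, 6161, 5812 and 5934 in COP, and 4824, 4878, 5481 and 4741 in DA. The COP arrays lay above all others, and those of LEW lay below F344. LEW minus COP was -0.25 (SE 0.0549, limma adjusted p = 0.00268) and COP minus DA 0.24 (limma adjusted p = 0.00534), while F344 minus COP missed the threshold at -0.15 (limma adjusted p = 0.0546). Psme1 had signals of 9606, 10090, 9857 and 8993 in F344, 10281, 9758, 9756 and 9294 in LEW, 10034, 9906, 10466 and 10355 in COP, and 9535, 9081, 10319 and 9849 in DA. These overlapped in all pairs of strains, and of the 6 differences 0 passed limma's threshold or an unadjusted p under 0.05. For LEW minus COP the value was -0.061, with a 95% interval of -0.17 to 0.052.

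The constitutive catalytic subunits Psmb5 and Psmb7 gave the level against which the inducible ones were set. Psmb5 had signals of 13561, 13712, 13804 and 13289 in F344, 13954, 12767, 13138 and 12275 in LEW, 12251, 11524, 12258 and 12071 in COP, and 11939, 12518, 11051 and 13968 in DA. F344 lay above COP by 0.18 (SE 0.0615, limma adjusted p = 0.0479). That call was lost in 17 of 26 alternatives, among them leaving out any F344 or COP array, LEW replicate 2 or 3, or DA replicate 1 or 2 (limma adjusted p up to 0.131). Psmb7 had signals of 10097, 9586, 8958 and 9719 in F344, 10428, 8979, 9623 and 9480 in LEW, 9164, 9993, 9630 and 9751 in COP, and 9866, 9228, 9746 and 10392 in DA. Its arrays overlapped in all strains and no difference passed. The LEW minus COP difference was -0.0025, with a 95% interval of -0.12 to 0.12.

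Relative to Psmb5 on the same array, all 3 inducible beta subunits were lower in LEW and in F344 than in COP. These ratios were chosen after the data had been seen, and the whole table was refitted with limma after subtracting the log2 signal of the partner. Between LEW and COP the difference was -0.74 for Psmb8 (SE 0.0968, limma adjusted p = 4.02e-06), -0.95 for Psmb9 (limma adjusted p = 4.59e-08) and -0.44 for Psmb10 (limma adjusted p = 0.0018). Between F344 and COP it was -0.63 for Psmb8 (limma adjusted p = 2.67e-05), -0.63 for Psmb9 (limma adjusted p = 2.4e-05) and -0.38 for Psmb10 (limma adjusted p = 0.00388). In LEW against DA it was -0.47 for Psmb8 (limma adjusted p = 0.00175) and -0.75 for Psmb9 (limma adjusted p = 3e-06), while Psmb10 gave -0.083 (limma adjusted p = 0.651). Between COP and DA only Psmb10 passed (0.36, limma adjusted p = 0.0168). With Psmb7 as the partner, LEW minus COP was -0.62 for Psmb8, -0.84 for Psmb9 and -0.32 for Psmb10, all called (limma adjusted p = 4.18e-05, 3.15e-08 and 0.0281), but F344 minus COP of Psmb10 (-0.20, limma adjusted p = 0.181) and F344 minus DA of Psmb8 (-0.19, limma adjusted p = 0.226) did not pass. Set against Psme1, Psme2 no longer passed in either of its comparisons, at -0.19 for LEW minus COP (limma adjusted p = 0.0711) and 0.17 for COP minus DA (limma adjusted p = 0.117).

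**Figure D2:**
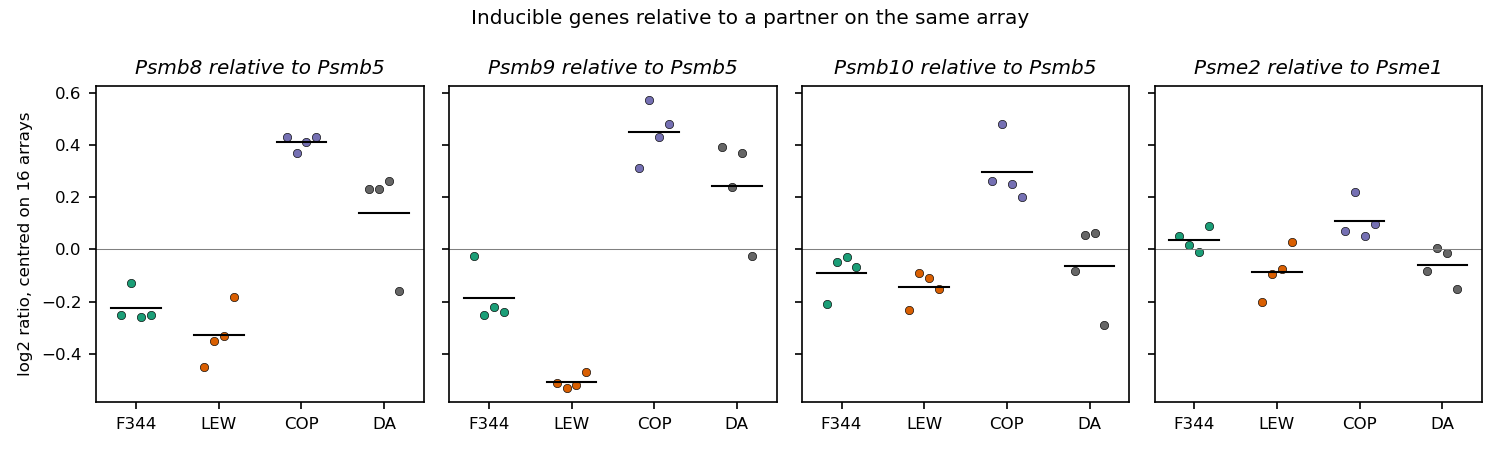
Log2 ratio of Psmb8, Psmb9 and Psmb10 to Psmb5 and of Psme2 to Psme1 on the same array, centred on the mean of the 16 arrays, in F344, LEW, COP and DA; dots are arrays and lines are strain means (n = 4). For Psmb8, Psmb9 and Psmb10 every COP array lies above every LEW array.

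Between LEW and COP, 7 of the 46 genes were called, against 13.7% of kept probe sets. Of these, 5 were lower in LEW (background 7.49%): Psmb8, Psmb9, Psmb10, Psme2 and the non-catalytic beta subunit Psmb3. The 2 higher in LEW (background 6.25%) were Psmd5 and Psmf1. The arrays of LEW and COP did not overlap for 12 of the 46, against 17.4% of kept probe sets. Between COP and DA, 6 were called, against 11.9%. Those higher in COP were Psmb8, Psmb10 and Psme2 (background 5.94%), and those lower in COP were Psmd5, Psmg1 and Psme4 (background 5.93%).

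**Figure D3:**
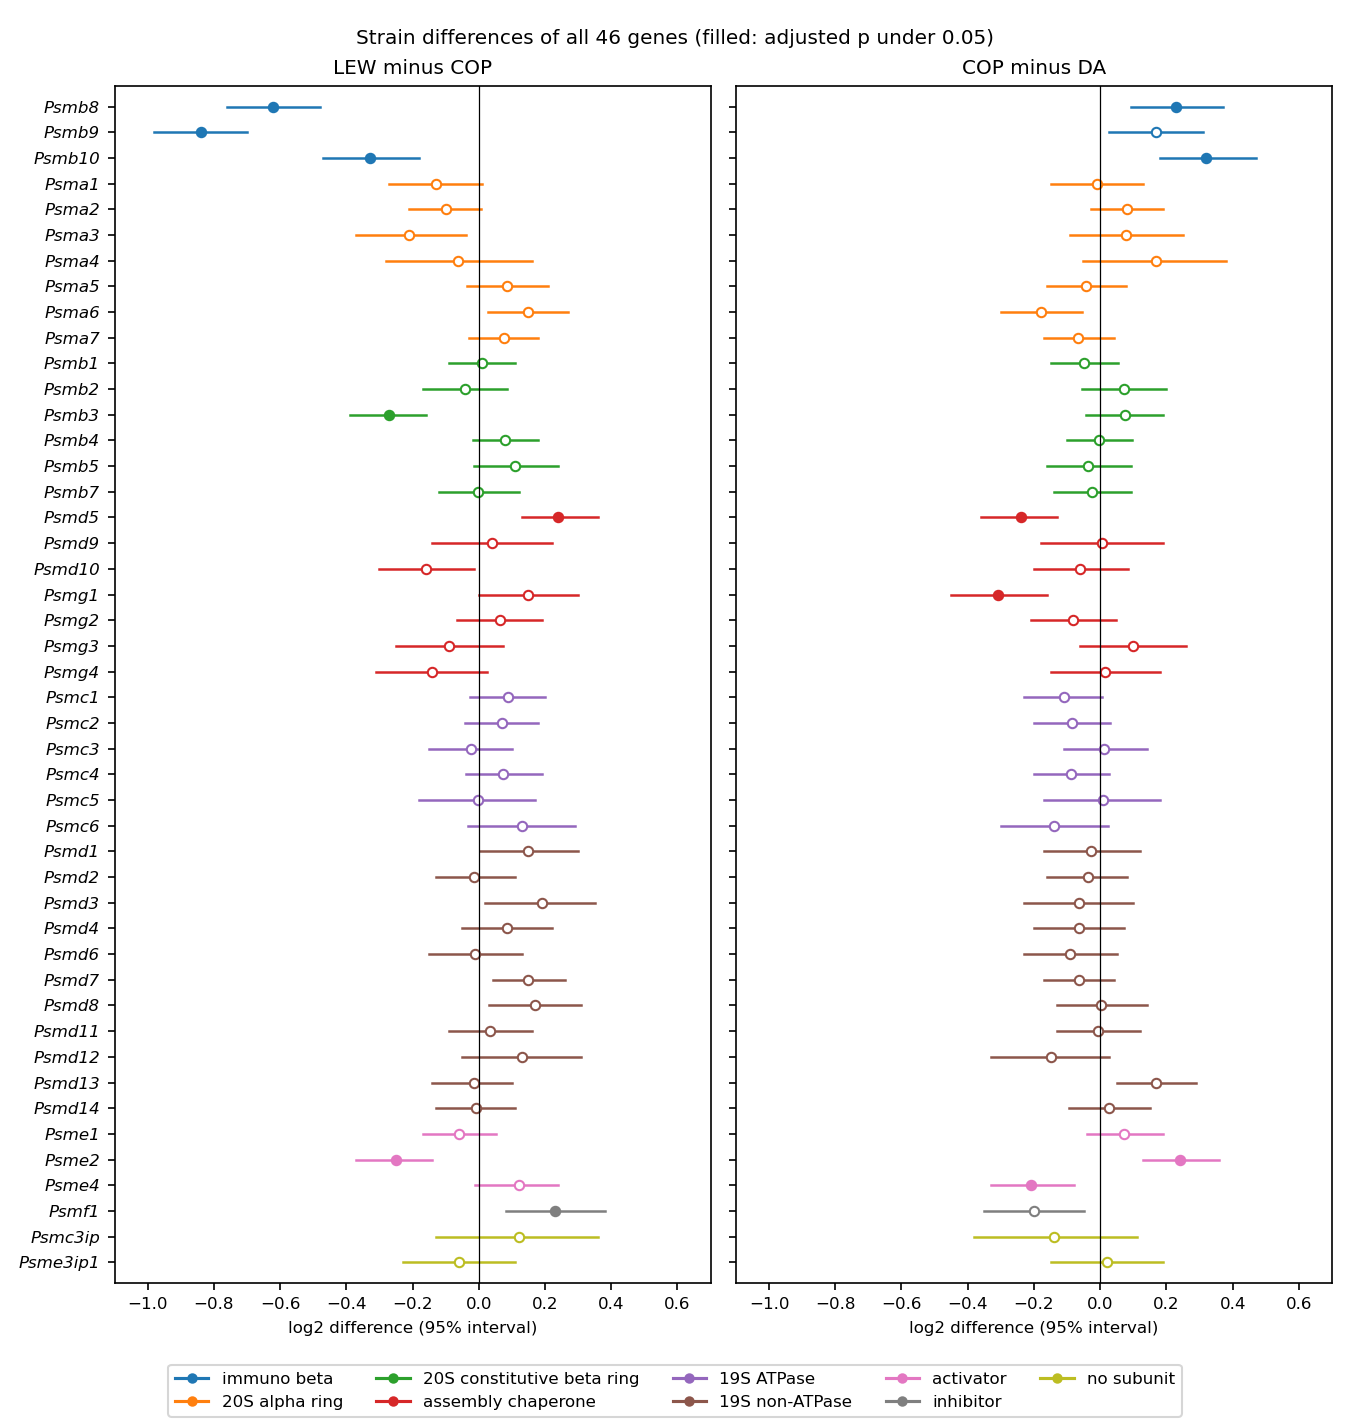
Log2 difference of all 46 genes between LEW and COP (left) and between COP and DA (right), with its 95% interval from limma; filled points have an adjusted p under 0.05 and colours give the role. Psmb9 lies at -0.84 for LEW minus COP, whereas most constitutive subunits lie close to 0 in both panels.

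F344 minus COP gave 6 calls, against 19.9% of kept probe sets. Lower in F344 were Psmb8, Psmb9, Psmb10 and Psmd10 (background 10.5%), and higher were Psmb5 and Psmd12 (background 9.40%). F344 minus LEW gave 5 calls, against 13.8%, with Psmb9, Psmb3, Psma1 and Psmg4 higher in F344 (background 6.53%) and Psmf1 lower (background 7.25%). F344 minus DA gave 4 calls, against 16.1%, all lower in F344 (background 8.44%): Psmb8, Psmb9, Psmd10 and Psmg1. LEW minus DA also gave 4, against 10.4%, all lower in LEW (background 5.42%): Psmb8, Psmb9, Psmb3 and Psmd10. No member was called higher in F344 or in LEW than in DA, where the backgrounds were 7.66% and 5.03%. The share of members called thus ran from 8.7% (F344 minus DA and LEW minus DA) to 15.2% (LEW minus COP), close to or below that of all probe sets in each comparison.

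Of the 6 constitutive beta subunits, Psmb3 alone was called by the F-test. Its signals were 8798, 8189, 8335 and 7825 in F344, 7435, 7086, 7422 and 7263 in LEW, 8847, 9200, 8761 and 8488 in COP, and 7833, 8317, 8145 and 9283 in DA. All LEW arrays lay below all others. The LEW minus COP difference was -0.27 (SE 0.0565, limma adjusted p = 0.00184) and remained called in every alternative tried. F344 minus LEW was 0.18 (limma adjusted p = 0.0363), lost without F344 replicate 1, 2 or 3 or LEW replicate 2, 3 or 4 (up to 0.12), without the filter, under median centring and without the intensity trend. LEW minus DA was -0.20 (limma adjusted p = 0.0265), lost without LEW replicate 2 or 4 or DA replicate 4 (up to 0.0951), under median centring, without the intensity trend and in a fit of the 2 strains alone. The remaining 3, Psmb1, Psmb2 and Psmb4, had no called difference, and their highest strain mean was 1.05 to 1.06 times the lowest.

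The alpha subunits form the outer rings that gate the core. Among the 7, the highest strain mean was 1.05 to 1.17 times the lowest, and 1 difference was called. Psma1 had signals of 8931, 8600, 8259 and 8172 in F344 and 7700, 8074, 6669 and 6760 in LEW. The strains did not overlap, and the difference was 0.22 (SE 0.0664, limma adjusted p = 0.0293). It was lost without F344 replicate 1 or 2 or LEW replicate 3 or 4 (up to 0.114), under median centring and without the intensity trend.

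The 19S particle showed few calls. Of its 6 ATPases, Psmc1 to Psmc6, limma called 0 in each of the 6 comparisons, and 1 difference, F344 minus COP, had an unadjusted p under 0.05. Of the 11 other subunits, which include the ubiquitin receptor Psmd4 and the deubiquitinase Psmd14, 1 was called once. Psmd12 had signals of 3301, 3706, 3821 and 3404 in F344 and 2561, 2912, 3441 and 2967 in COP, which overlapped. The difference was 0.27 (SE 0.0862, limma adjusted p = 0.0342). It was lost without F344 replicate 2 or 3 or COP replicate 1, 2 or 4 (up to 0.128), without the filter and without the intensity trend.

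Several probe sets of 1 gene did not always give the same result. Psmc6, an ATPase subunit, had 3 kept probe sets, and F344 minus LEW was 0.079 on the brightest (limma adjusted p = 0.573) but 0.78 and 0.65 on the others, both called. LEW minus COP was 0.13 on the brightest (limma adjusted p = 0.328) but -0.43 and -0.46 on the others, both called (limma adjusted p = 0.00221 and 0.0258). For LEW minus DA the brightest gave -0.0093 and the others -0.52 and -0.58, both called. F344 minus COP was called on 1 of them, at 0.35 (limma adjusted p = 0.00848). A second probe set of Psmd7 was called higher in F344 than in COP (0.22, limma adjusted p = 0.00717) and in DA (0.22, limma adjusted p = 0.0096), where the brightest gave 0.092 and 0.027. The other kept probe sets of Psmd11, Psmd14 and Psme4 were not called. Of the 46 genes, 9 had more than 1 probe set. Each of Psmb8, Psmb9, Psmb10 and Psme2 had 1, so no second probe set checks them, and whether sequence differences between strains under the probes moved with their signals was not tested.

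The assembly chaperones, which build the particle but are not part of it, held 3 of the 6 other genes called by the F-test. Psmd5, a chaperone of the 19S base, had signals of 5225, 5368, 5184 and 5249 in F344, 5672, 6011, 5850 and 5971 in LEW, 4660, 5362, 4876 and 4990 in COP, and 5547, 6220, 5677 and 6116 in DA. LEW and DA lay above F344 and COP without overlap. LEW minus COP was 0.24 (SE 0.0553, limma adjusted p = 0.00411) and COP minus DA -0.24 (limma adjusted p = 0.00524). Psmg1, which helps assemble the alpha ring, had signals of 3192, 3197, 3148 and 3686 in F344, 4054, 3496, 3579 and 3626 in LEW, 3071, 3342, 3556 and 3333 in COP, and 3909, 3903, 4567 and 4078 in DA. DA overlapped LEW only. F344 minus DA was -0.32 (SE 0.0713, limma adjusted p = 0.0039) and COP minus DA -0.31 (limma adjusted p = 0.00655).

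Psmd10, or gankyrin, another base chaperone, which also binds cell cycle regulators, had signals of 2850, 2841, 2533 and 2705 in F344, 2741, 3008, 2907 and 2775 in LEW, 2879, 3435, 3206 and 3243 in COP, and 3531, 3116, 3534 and 3123 in DA. F344 lay below COP and DA without overlap. F344 minus DA was -0.28 (SE 0.0684, limma adjusted p = 0.0067). F344 minus COP was -0.22 (limma adjusted p = 0.0256), lost without F344 replicate 3 or 4 or COP replicate 2, 3 or 4 (up to 0.0947), and under median centring. LEW minus DA was -0.22 (limma adjusted p = 0.0469) and was lost without any 1 LEW array, F344 replicate 1, 2 or 4, COP replicate 3 or 4, or DA replicate 1 or 3 (up to 0.137), without the filter, under median centring, without the intensity trend and in a fit of the 2 strains alone. Psmg4, a partner in alpha ring assembly, had signals of 3477, 3848, 3581 and 3603 in F344 and 3129, 3280, 2955 and 2606 in LEW, without overlap. The difference was 0.28 (SE 0.0794, limma adjusted p = 0.0205), lost without F344 replicate 2 or LEW replicate 3 or 4 (up to 0.0711).

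**Figure D4:**
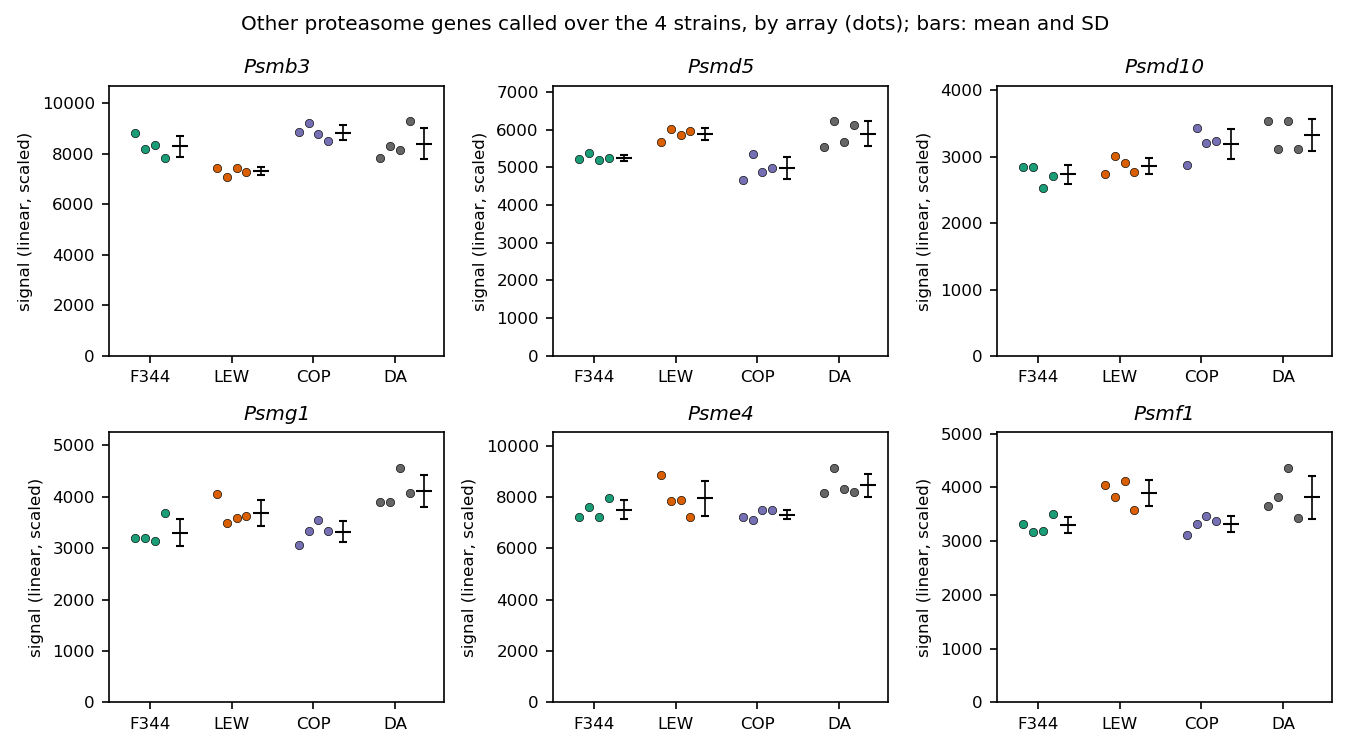
Signal (linear, scaled by the authors) of the 6 other proteasome genes that the F-test called, in F344, LEW, COP and DA from left to right; dots are arrays, and the bar beside them is the mean with the SD (n = 4). The 4 LEW arrays of Psmb3 (7086 to 7435) lie below all others, and for Psmd5 the arrays of LEW and DA lie above those of F344 and COP.

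Psmf1, an inhibitor of the core in the test tube, had signals of 3311, 3175, 3188 and 3494 in F344, 4037, 3822, 4122 and 3582 in LEW, 3106, 3318, 3470 and 3367 in COP, and 3654, 3822, 4364 and 3422 in DA. LEW lay above F344 and COP without overlap. F344 minus LEW was -0.24 (SE 0.0711, limma adjusted p = 0.0275), lost without F344 replicate 1, 2 or 3 or LEW replicate 1 or 3 (up to 0.0922). The LEW minus COP difference was 0.23 (limma adjusted p = 0.0342), lost without LEW replicate 1, 2 or 3 or COP replicate 1, 2 or 4 (up to 0.105), and both were lost without the intensity trend. Psme4, a nuclear activator that promotes the degradation of acetylated histones, had signals of 7224, 7623, 7209 and 7972 in F344, 8844, 7831, 7896 and 7219 in LEW, 7210, 7107, 7479 and 7478 in COP, and 8166, 9145, 8302 and 8206 in DA. COP lay below DA without overlap, by -0.21 (SE 0.0613, limma adjusted p = 0.0312). The call was lost without COP replicate 1 or 2 or DA replicate 2 or 3 (up to 0.101), without the intensity trend and in the mean over its probe sets.

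Psmb8 and Psmb9 lie in the MHC on chromosome 20 beside the peptide transporter genes, and their neighbours did not all follow them. The stretch of 23 protein-coding genes reaching 10 to each side, Psmb8 and Psmb9 included, was chosen after the data had been seen. Of its genes 15 were measured, and the F-test called 10 of the 15, against 31.2% of all kept probe sets. Psmb8 and Psmb9, known as called beforehand, are among these 10, so the count does not describe neighbours alone. Tap2, next to Psmb8, had mean signals of 785 ± 124 (F344), 880 ± 138 (LEW), 1789 ± 166 (COP) and 1655 ± 113 (DA), each with its SD over 4 arrays. LEW minus COP was -1.03 (limma adjusted p = 1.65e-06) and LEW minus DA -0.92 (limma adjusted p = 9.06e-06). Tap1, which lies between Psmb8 and Psmb9, had mean signals of 1028 ± 170 (F344), 1056 ± 216 (LEW), 1062 ± 143 (COP) and 1046 ± 112 (DA), each with its SD over 4 arrays. No difference of Tap1 passed, and LEW minus COP was -0.019 (limma adjusted p = 0.954). The class II genes on both sides ran the other way between LEW and COP, with differences of 1.18 for RT1-Ba, 0.94 for RT1-Bb, 0.72 for RT1-Db1, 0.67 for RT1-Da, 0.65 for RT1-DMb and 0.28 for RT1-DMa, all called. For these neighbours, too, whether sequence differences between strains under the probes moved with the signals was not tested.

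**Figure D5:**
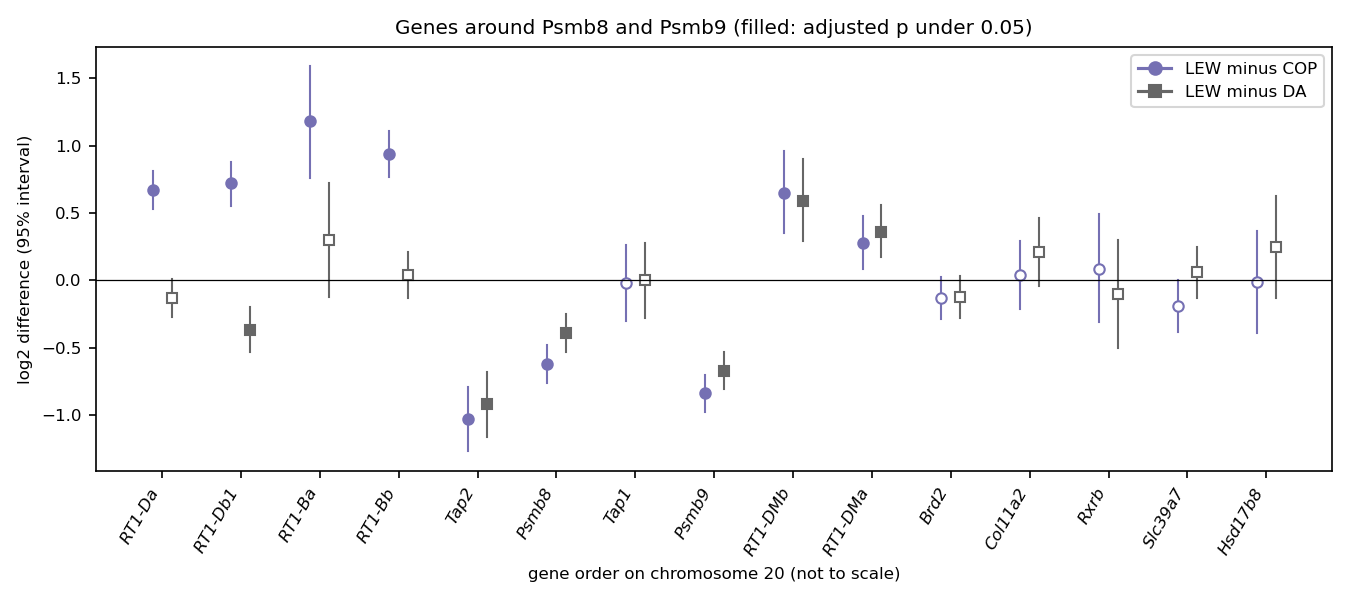
Log2 difference of the 15 measured genes around and including Psmb8 and Psmb9, in their order on chromosome 20 and not to scale. Circles give LEW minus COP and squares LEW minus DA, with 95% intervals from limma. Filled points have an adjusted p under 0.05. Tap2, Psmb8 and Psmb9 lie below 0 in both comparisons, Tap1 lies near 0, and the class II genes lie above 0 for LEW minus COP.

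Genes that act with the immunoproteasome were described through lists. Of 14 class I peptide loading and trimming genes, 0 were higher and 3 lower in LEW against COP, with backgrounds of 6.25% and 7.49%, namely Tap2, the trimming peptidase gene Erap1 (-0.38) and the chaperone gene Canx. The list had a median log2 difference of -0.022, where all kept probe sets had -0.016. Between COP and DA, limma called 0 of the 14, with 3 at an unadjusted p under 0.05. Of 11 measured genes of the interferon gamma pathway, 0 were higher and 3 lower in LEW against COP: Ifngr2, a chain of the interferon gamma receptor (-0.46), Irf8, a regulatory factor of myeloid cells (-0.38), and Irf9. The median of this list was -0.067. Ifng itself and Socs1 lay under the filter.

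Irf1, the factor best known for raising Psmb8, Psmb9 and Psmb10 in response to interferon gamma, had its lowest mean in LEW, like them. Its highest mean was in F344, and theirs were in COP. Irf1 had mean signals of 2073 ± 138 (F344), 1206 ± 87.6 (LEW), 1355 ± 237 (COP) and 1816 ± 128 (DA), each with its SD over 4 arrays. F344 minus LEW was 0.78 (limma adjusted p = 9.44e-06) and LEW minus DA -0.59 (limma adjusted p = 0.000289), while LEW minus COP, at -0.16, did not pass (limma adjusted p = 0.356). COP was below DA (-0.44, limma adjusted p = 0.00554), where Psmb8 and Psmb10 were above. F344 was above COP (0.63, limma adjusted p = 0.000105), where Psmb8, Psmb9 and Psmb10 were called lower in F344. The calls of Irf1 between F344 and LEW and between LEW and DA had the direction of those of Psmb9. Whether the RNA level of Irf1 bears on these genes was not tested. Among 17 interferon-stimulated genes, 0 were higher and 12 lower in LEW against COP, with backgrounds of 6.25% and 7.49%. Their median was -0.63, where all kept probe sets had -0.016. In COP against DA, 9 were higher and 2 lower (backgrounds 5.94% and 5.93%), with a median of 0.45 against 0.012. In F344 against LEW, 9 were higher and 0 lower (backgrounds 6.53% and 7.25%). In F344 against DA, 6 were higher and 4 lower (backgrounds 7.66% and 8.44%), with a median of 0.026 against -0.0017. Psmb8 and Psmb9 were called lower in F344 there. In F344 against COP, 1 was higher and 6 lower (backgrounds 9.40% and 10.5%). In LEW against DA, 0 were higher and 8 lower (backgrounds 5.03% and 5.42%). Their leading members were not alike: Mx2 was lower in LEW than in COP by -4.09, while Ifit1 was lower in COP than in DA by -1.94.

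Among genes that supply or control the constitutive proteasome, limma's F-test called 1 of 18 partners and assembly factors, Zfand5, and 3 of 12 regulators, against 31.2% of all kept probe sets. Of the 18, limma called 0 between F344 and LEW, between LEW and DA, and between COP and DA, with 0, 1 and 2 at an unadjusted p under 0.05. Between F344 and COP, 4 of the 18 were higher in F344 and 0 lower, with backgrounds of 9.40% and 10.5%: Pomp, the maturation factor of the core, Ecpas, Txnl1 and Zfand5. Zfand5 was also called higher in F344 than in DA and higher in LEW than in COP. Of 12 regulators, the largest differences were those of Nfe2l1, the transcription factor that raises proteasome genes when the proteasome is inhibited. It had mean signals of 573 ± 60 (F344), 693 ± 96.9 (LEW), 650 ± 84 (COP) and 2067 ± 136 (DA), each with its SD over 4 arrays, and COP minus DA was -1.68 (limma adjusted p = 1.68e-09). Another probe set gave -0.96 (limma adjusted p = 0.000282) and the last gave -0.29, which did not pass (limma adjusted p = 0.15).

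Markers of the marrow cells that use the immunoproteasome moved with some of these comparisons, and their part in the results was not tested. Of 13 macrophage and monocyte markers, 2 were higher and 3 lower in LEW against COP, with backgrounds of 6.25% and 7.49%. Between F344 and LEW, where Psmb9 was higher in F344, 8 of the 13 were higher in F344 and 0 lower, with backgrounds of 6.53% and 7.25% and a median log2 difference of 0.30. Their summed signal ran from 64944 to 68128 on F344 arrays, 63467 to 68890 on LEW arrays, 70539 to 74366 on COP arrays and 66746 to 80630 on DA arrays. Of 15 T and natural killer cell markers, 10, among them Cd3d, Cd3e, Cd8a and Gzmb, lay under the filter. Of the other 5, 0 were higher and 3 lower in LEW against COP (Lck, Il2rb and Nkg7), with backgrounds of 6.25% and 7.49%. In COP against DA, 3 were higher and 0 lower (backgrounds 5.94% and 5.93%). The summed signal of that list was 6408 to 6642 on F344 arrays, 4840 to 5425 on LEW arrays, 7356 to 8497 on COP arrays and 4703 to 6162 on DA arrays. Every COP array lay above every array of the other strains, and every DA array lay below every F344 array. Nkg7 alone had mean signals of 2513 (F344), 2382 (LEW), 4213 (COP) and 2793 (DA). Between F344 and COP the markers did not move together. Cd3g was called higher in F344 (0.74), while Lck (-0.53) and Nkg7 (-0.74) were called lower (backgrounds 9.40% and 10.5%).

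The 10 class II and dendritic cell genes summed to 28371 to 29673 on F344 arrays and 18814 to 20438 on LEW arrays. On COP arrays the sum was 14026 to 15833 and on DA arrays 19217 to 20696, so it was lowest in COP. Flt3 lay under the filter. Of the other 9, 7 were higher and 1, Bst2, lower in LEW against COP (backgrounds 6.25% and 7.49%). Itgax had its lowest mean in F344 (1237) and its highest in LEW (2513). The 7 B lymphoid markers summed to 16760 to 17152 on F344 arrays, 28382 to 31403 on LEW arrays, 26606 to 31234 on COP arrays and 20546 to 28064 on DA arrays, so every F344 array lay below every other array. All 7 were called lower in F344 than in LEW, in COP and in DA, with median log2 differences of -0.79, -0.87 and -0.58 and backgrounds of 7.25%, 10.5% and 8.44%. Psmb8 and Psmb9 were also called lower in F344 than in COP and in DA. Against LEW, however, Psmb9 was called higher in F344 (0.39), and Psmb8, at 0.17, was not called. Between LEW and COP, 1 of the 7, Vpreb3, was called. The 7 neutrophil granule markers ran from 126943 to 132457 on F344 arrays, 147550 to 167136 on LEW arrays, 169977 to 178676 on COP arrays and 141597 to 166630 on DA arrays, so every COP array lay above all others. In LEW against COP, 1 of the 7 was higher and 3 lower, and in COP against DA 4 were higher and 0 lower (backgrounds 5.94% and 5.93%). Between LEW and COP, Mmp9 was higher in LEW (0.39), while Camp (-0.61), Lcn2 (-0.45) and Mmp8 (-0.81) were lower. In LEW against DA, 2 were higher, Lcn2 (3.61) and Mmp9 (0.62), and 2 lower, Camp (-0.40) and Mmp8 (-0.44). The backgrounds there were 5.03% and 5.42%. Those higher in COP than in DA were Camp (0.20), Lcn2 (4.06), Mmp8 (0.37) and Itgam.

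Of 8 erythroid markers, 7 were called by the F-test, against 31.2% of all kept probe sets. They summed to 135634 to 151548 on F344 arrays, 162564 to 187163 on LEW arrays, 145603 to 155932 on COP arrays and 165873 to 191719 on DA arrays. LEW lay above COP without overlap, and 4 of the 8 were called higher in LEW and 0 lower (backgrounds 6.25% and 7.49%). Of 8 skeletal muscle and 5 endothelial markers, limma called 0 between LEW and COP, with 2 and 0 at an unadjusted p under 0.05. Of 7 osteoblast and 7 cartilage markers, limma called 0 between LEW and COP, with 0 and 1 at an unadjusted p under 0.05. The labelled tissue held its defining markers, with summed osteoblast signals of 246681 to 311016 over all 16 arrays. Skeletal muscle markers were bright as well. They summed to 274151 to 290037 on F344 arrays, 231606 to 277169 on LEW arrays, 209241 to 252127 on COP arrays and 259177 to 314554 on DA arrays. In F344 against COP, 3 of these 8 were higher and 0 lower (backgrounds 9.40% and 10.5%).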

How the data were processed

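Total RNA of the proximal femur (5 ug per the labels' protocols) was measured on 16 arrays. The authors deposited linear intensity values, 1 per probe set and array. The submitters' processing notes name MAS5; its version, scaling target and genome build are not given in the sources used here. Each array had a trimmed mean of 1000. The 57 control probe sets were left out, and 20826 of the 31042 others had 1 symbol in the platform annotation, 436 several and 9780 none. Symbols matching only in probe sets with several (6 probe sets) were not analysed here, nor were proteins. All 46 gene identifiers matched RefSeq's GRCr8 table, which gave chromosomes and gene order.

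Signals below 1 were set to 1 (255 values), log2 was taken, and probe sets with a mean under the 40th percentile (signal 174) were left out. A linear model with a mean for every strain was fitted with limma 3.58.1 (R 4.3.3), using an intensity trend and 12 residual degrees of freedom; p-values are two-sided. The fit was tested on simulated data. Called means an adjusted p under 0.05.

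The members and lists were chosen with earlier results of these data known. Signals by array are given for the 5 inducible genes, Psmb5, Psmb7 and the members called by the F-test, and every member called in a comparison is named. Alternatives were quantile normalization, median centring, no filter, a pseudocount of 19.3, the 60th percentile as filter, no intensity trend, robust moderation, the replicate number as a block, averaging all kept probe sets of a gene, fits of 2 strains alone and leaving out each array; ratios to Psmb5, Psmb7 and Psme1 were chosen once the data had been seen. matplotlib 3.10.9 drew the figures.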

Additional observations from a re-analysis of the deposited data

Results flagged for a closer look

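Single arrays stood apart from the rest of their strain for 3 of the 13 genes given by array, among 52 groups of 4 arrays tested; chance flags about 1 in 20. The share of the whole range taken by the gap to the nearest array was 0.868 for Psmb8 in COP, where replicate 2 was lowest at 2417 and the others lay at 2646 to 2682. It was 0.903 for Psmg1 in F344, where replicate 4 was highest at 3686 and the others lay at 3148 to 3197. It was 0.854 for Psme4 in DA, where replicate 2 was highest at 9145 and the others lay at 8166 to 8302. Without DA replicate 2 the difference of Psme4 between COP and DA no longer passed, whereas the calls of Psmg1 were kept without F344 replicate 4.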

How the results depend on the processing

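The number of members called moved by more than 1.5 times in 4 of the 6 comparisons when a setting was changed. For F344 minus LEW it was 5, and 2 without the intensity trend. For F344 minus COP it was 6, and 3 without the filter, under median centring and without the intensity trend. For F344 minus DA it was 4, and 7 with the filter at the 60th percentile and under quantile normalization. For LEW minus DA it was 4, and 2 under median centring, without the intensity trend and in the fit of the 2 strains alone. The cause was not tested. Leaving out each array in turn gave 9 to 12 calls for the F-test, 1 to 6 for F344 minus LEW (1 without F344 replicate 2 or LEW replicate 3, and 3 without F344 replicate 1 or 3), 3 to 7 for F344 minus COP (3 without F344 replicate 2 or 3 or COP replicate 1, 2 or 3), 3 to 8 for F344 minus DA (8 without LEW replicate 4 and 7 without LEW replicate 1), 6 to 8 for LEW minus COP, 2 to 4 for LEW minus DA (2 without LEW replicate 2) and 4 to 7 for COP minus DA. With the replicate number as a block, the F-test called 9 members and the 6 comparisons 6, 5, 5, 7, 3 and 5, in the order above. Deviations of arrays with the same number correlated at -0.17 to 0.088 over 24 pairs. Such low values do not show whether arrays with the same number were handled together, which the labels do not state. The block ended the calls of Psmb5 in F344 against COP, Psmb3 in F344 against LEW, Psmd10 in LEW against DA and Psme4 in COP against DA.

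Of 860 alternative values of the 32 called differences, 742 stayed past the threshold in the same direction, 118 missed it and 0 reversed. The differences of Psmb9 in its 5 called comparisons, of Psmb8 in LEW and in F344 against COP and in LEW against DA, and of Psmb10 in COP against LEW and DA passed in every alternative tried. Those of Psme2 passed in all but the ratio to Psme1. Psmd5 in COP against LEW and DA, and Psmg1 in DA against F344 and COP, also passed in every alternative tried. So did Psmb3 in LEW against COP and Psmd10 in F344 against DA.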
